A study of Mus musculus with 2 samples.

Results

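The genes described here encode the enzymes that build purine and pyrimidine nucleotides, the serine and folate enzymes that supply them with carbon, and enzymes of the methionine cycle. There were 38 such genes, of 18193 genes that the arrays could name. They were chosen by symbol from general knowledge of these pathways, but with earlier results of these data known. RAW264.7, a mouse macrophage cell line that can form osteoclasts when given RANKL, was transfected with a negative control (scramble) siRNA or with siRNA against *Flcn*, the gene of folliculin, and RNA of each condition was hybridised to 1 Affymetrix mouse genome array. The medium was changed to MEM alpha with 10% FCS at 24 hours after transfection and RNA was taken 48 hours later. The labels name no RANKL, the methods name 1 siRNA sequence against *Flcn*, and the sources used here do not say whether the MEM alpha held nucleosides. With 1 array per condition no difference has a replicate check and no test was run, so that an effect of the knockdown and any other way in which the cultures differed cannot be told apart.

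Cells make purines on a ribose phosphate donor, PRPP, in a chain of steps that ends at inosine monophosphate (IMP), from which AMP and GMP branch off. Pyrimidines are built as a ring first and then joined to PRPP. Purines and thymidylate need 1-carbon units carried by folate, most of which come from serine. Dividing cells draw on all of these routes, while resting cells can rely more on salvage of bases and nucleosides. In mitochondria, folate enzymes turn serine into formate, and the cytosolic enzymes use that formate for purine and thymidylate synthesis.

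As a check of the knockdown, *Flcn* had a signal of 209 with scramble siRNA and 145 with *Flcn* siRNA at 1 probe set, and 241 and 206 at the other above the signal filter. *Gpnmb*, a known target of the transcription factor Tfe3, had 294 and 2500. Of 10 macrophage markers 9 were measured, with summed signals of 25954 with scramble siRNA and 25756 with *Flcn* siRNA. Of the fibroblast, epithelial and lymphoid markers 1 of 8, 2 of 6 and 0 of 8 passed the filter, the lists' summed signals lay between 23.0 and 62.9, and no marker was listed at exactly 0. Among 10 osteoclast markers, whose summed signals were 457 and 625, 6 were measured, while *Mmp9*, *Calcr*, *Itgb3* and *Oscar* lay under the filter. Of those measured, 2 were higher on the *Flcn* siRNA array by at least 1.5-fold, against 5.84% of all measured genes. They were *Ctsk* (17.2 and 58.4, 3.40-fold, at 1 probe set) and *Atp6v0d2* (43.0 and 119, 2.77-fold). The others, *Acp5*, *Dcstamp*, *Ocstamp* and *Nfatc1*, had log2 ratios of 0.35, 0.15, 0.04 and 0.10, and another probe set of *Nfatc1* had 0.86. In RNA of a whole culture, a larger share of cells with a transcript and more transcript per cell cannot be told apart.

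The promoters of 33 members could be read from a RefSeq table of GRCm38.p6, as windows of 250 bases before and 50 bases after an annotated start. *Pfas*, *Dhodh* and *Aldh1l2* were not in it. A pair of motifs was searched on both strands, CACGTG (the E-box, a site that Myc, Mitf and Tfe3 can bind) and TGATGNAA (the core of the element through which ATF4 acts, called CARE here), which can overlap by the letters TG but were never found in the same member window. The E-box was present for 3 of 33 members (9.09%), against 8.09% of 27025 genes in the table, and the CARE core for 1 of 33 members (3.03%), against 4.51% of all genes. The member windows had a median GC content of 61.0% and a median of 18.5 CpG dinucleotides, against 52.7% and 7 over all windows. The letters CACGTG hold a CpG, and the E-box shares were not adjusted for this. The windows that follow are those with a match (1 of the pair for *Nme1*), that of *Ppat*, which faces *Paics*, and that of *Mthfd1*, a member with a large difference and no match. Capitals mark the motif. A match is a description of the letters and not a binding site. For Tfe3 only CACGTG was searched, and not the M-box motifs as such, at which the paper measured its binding in other genes.
Paics, chr5:76951052-76951351, plus strand, E-box from base -203: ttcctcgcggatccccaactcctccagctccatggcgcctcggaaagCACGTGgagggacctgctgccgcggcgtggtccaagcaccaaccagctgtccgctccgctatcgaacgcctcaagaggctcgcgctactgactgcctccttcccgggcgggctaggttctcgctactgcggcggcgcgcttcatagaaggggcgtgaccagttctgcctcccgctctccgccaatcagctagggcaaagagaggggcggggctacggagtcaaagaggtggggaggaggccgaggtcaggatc
Ppat, chr5:76951529-76951828, minus strand, no match: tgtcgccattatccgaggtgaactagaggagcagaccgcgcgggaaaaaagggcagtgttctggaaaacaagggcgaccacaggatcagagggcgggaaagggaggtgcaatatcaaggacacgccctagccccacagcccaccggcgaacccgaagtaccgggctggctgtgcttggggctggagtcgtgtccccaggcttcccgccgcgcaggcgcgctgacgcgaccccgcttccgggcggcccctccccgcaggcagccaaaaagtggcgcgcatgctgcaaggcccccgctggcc
Atic, chr1:71556906-71557205, plus strand, E-box from base -7: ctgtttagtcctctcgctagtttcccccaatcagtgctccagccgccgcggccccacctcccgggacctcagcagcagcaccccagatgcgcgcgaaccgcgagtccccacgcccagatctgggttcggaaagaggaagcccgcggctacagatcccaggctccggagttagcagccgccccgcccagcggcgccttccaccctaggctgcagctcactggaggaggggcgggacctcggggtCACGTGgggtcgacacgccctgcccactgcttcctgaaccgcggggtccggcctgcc
Nme1, chr11:93968223-93968522, minus strand, E-box from base -18: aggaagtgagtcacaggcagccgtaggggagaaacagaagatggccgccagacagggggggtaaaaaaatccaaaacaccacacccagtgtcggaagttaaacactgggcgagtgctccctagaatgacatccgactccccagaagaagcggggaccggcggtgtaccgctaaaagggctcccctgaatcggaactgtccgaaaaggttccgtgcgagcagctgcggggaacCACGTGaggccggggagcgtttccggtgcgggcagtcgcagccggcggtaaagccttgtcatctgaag
Prps1, chrX:140456353-140456652, plus strand, CARE core from base -170: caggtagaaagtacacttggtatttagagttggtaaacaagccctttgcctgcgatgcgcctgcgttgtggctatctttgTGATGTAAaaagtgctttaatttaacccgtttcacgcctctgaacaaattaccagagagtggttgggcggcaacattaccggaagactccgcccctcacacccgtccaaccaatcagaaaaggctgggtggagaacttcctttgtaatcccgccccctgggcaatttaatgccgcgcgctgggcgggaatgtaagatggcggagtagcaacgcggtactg
Mthfd1, chr12:76254982-76255281, plus strand, no match: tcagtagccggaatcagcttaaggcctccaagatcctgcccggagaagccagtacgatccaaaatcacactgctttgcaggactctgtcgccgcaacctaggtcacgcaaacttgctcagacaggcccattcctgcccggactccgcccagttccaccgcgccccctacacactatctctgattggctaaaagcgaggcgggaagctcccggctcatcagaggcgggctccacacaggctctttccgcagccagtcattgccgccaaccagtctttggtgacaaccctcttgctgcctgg
Positions are counted from the annotated start, whose base is +1. *Nme1* has another annotated start, with an E-box of its own from base -29. *Ppat* and *Paics*, which carry out different steps of the same purine chain, are transcribed from opposite strands, and their annotated starts lie 276 bases apart, such that the first bases of both transcripts overlap. The members with an E-box, *Atic*, *Paics* and *Nme1*, had log2 ratios of 0.09, 0.13 and 0.41 between the conditions. Their median was 0.13, against 0.16 for the measured members whose windows held no E-box.

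To ask how folliculin knockdown bears on this network, the brightest probe set of a gene, by its mean over both arrays, stood for that gene. Each array's median signal (12.8 with scramble siRNA, 13.6 with *Flcn* siRNA) served as a floor, to which dimmer signals were set, and log2 ratios are of the signal with *Flcn* siRNA to that with scramble siRNA. A gene was measured where the geometric mean of its signals was at least 13.2, and a difference of 1.5-fold or more, with no test behind it, is named a call here. Of the 38 genes, 34 were measured. *Gldc*, which cleaves glycine in mitochondria, had signals of 2.20 and 1.90, and *Aldh1l1*, the cytosolic dehydrogenase of formyl folate, had no probe set above 14.6, so that both lay under the filter. *Impdh2* and *Mat2a* are not analysed here.

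At the probe sets used and the deposited scaling, the members that make PRPP, purines and pyrimidines lay above 0 for 17 of 17 measured genes. Those that make serine lay below 0 for 2 of 3, and the folate enzymes went both ways. Of the 34 measured members 29 had a log2 ratio above 0 (85.3%), against 51.7% of 10285 measured genes, and the median log2 ratio was 0.16, against 0.01 over all measured genes. *Pfas*, *Shmt1*, *Mthfd1*, *Prps2* and *Gart* were called higher, which is 5 of 34 (14.7%) against 5.84% of all measured genes. *Aldh1l2* was called lower, which is 1 of 34 (2.94%) against 5.54%. No member had a signal under the array's median at the probe set used. Most differences were small, and 15 of the 34 log2 ratios were nearer to 0 than 0.19, the median SD between probe sets of 1 gene over 5034 genes, which is a technical spread and no replicate error. After median scaling (dividing each array by its own median), which shifts log2 ratios by -0.087, 67.6% of the members lay above 0, against 39.8% of all measured genes. Of the 17 members that make PRPP, purines and pyrimidines, 2 then lay below 0. The calls then numbered 5 higher and 1 lower among the members, against 4.05% and 7.85% of all measured genes.

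**Figure D1:**
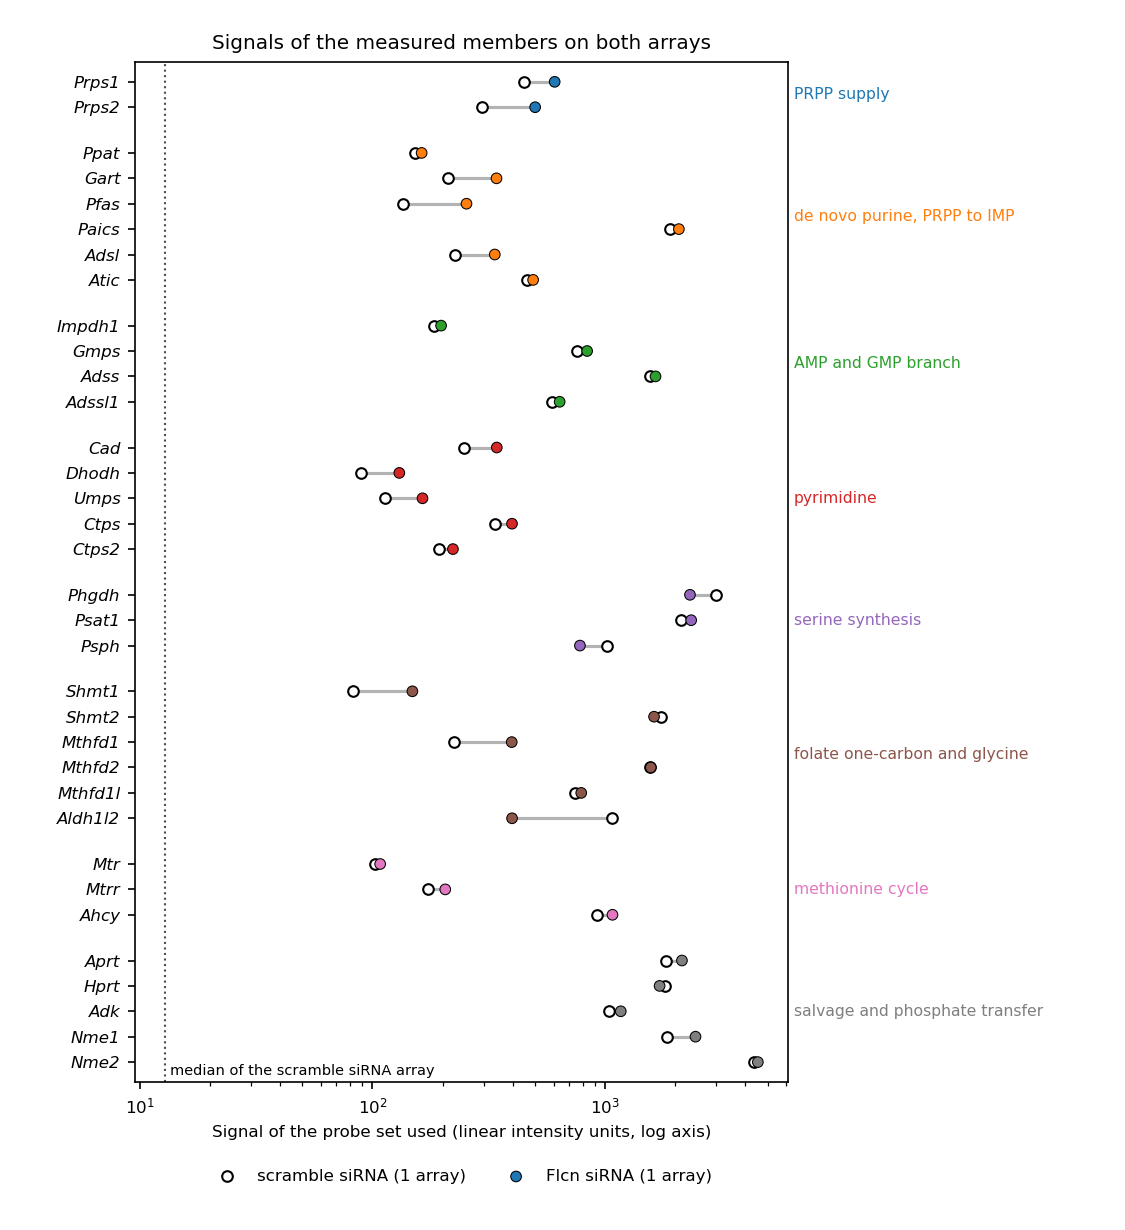
Signal of each measured member at the probe set used (linear units on a log axis), with scramble siRNA as open and *Flcn* siRNA as filled points from 1 array each, coloured by group; the dotted line is the median of the scramble siRNA array. The filled point lies to the right for 29 of 34 genes, and the widest gap to the left is that of *Aldh1l2*.

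PRPP synthetases, which activate ribose phosphate for every later step, lay above 0 for both isoforms. *Prps2* had a signal of 294 with scramble siRNA and 500 with *Flcn* siRNA (1.70-fold). Its other probe sets had 84.6 against 122 and 59.5 against 80.5, so that each of the 3 lay above 0, with log2 ratios from 0.44 to 0.76. *Prps1*, the other isoform, had 448 and 606 (log2 ratio 0.44) at its probe set.

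In the chain from PRPP to IMP, 6 of 6 members lay above 0 and their median log2 ratio was 0.35, but the sizes were uneven. *Pfas*, which makes formylglycinamidine ribotide in the middle of the chain, had 135 with scramble siRNA and 253 with *Flcn* siRNA, a 1.87-fold difference that ranked 140th from the highest among 10285 genes. *Adsl*, which acts both here and in the branch to AMP, had 227 and 335 (1.48-fold, just short of a call). Each of these genes has 1 probe set. *Gart*, an enzyme with 3 activities of the chain, had 211 and 341 (1.61-fold) at the probe set used and 143 and 289 at a second. Its other probe sets went the other way, from 185 to 119 and from 20.5 to 19.6, so that its log2 ratios span -0.64 to 1.01 and its mean log2 ratio over probe sets was 0.25. The higher probe sets of *Gart* are unique by their names, and the lower ones are named as matching several transcripts of a gene or similar sequences.

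*Ppat*, the amidotransferase that commits PRPP to purines, had 153 and 163 (log2 ratio 0.09), and its other probe set had 134 and 149. *Paics*, its neighbour on the facing strand, had 1891 and 2071 (log2 ratio 0.13). The other probe sets of *Paics* gave log2 ratios of 0.0010 and -0.15, so that it had no common direction. *Atic*, which closes the ring to IMP, had 462 and 490 (log2 ratio 0.09) at the probe set used and 127 and 175 (log2 ratio 0.47) at the other. At the probe sets used, *Ppat*, *Paics* and *Atic* thus differed by 1.06- to 1.10-fold and *Gart*, *Pfas* and *Adsl* by 1.48- to 1.87-fold.

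Beyond IMP, 4 of 4 measured members lay above 0 and none was called. *Impdh1*, an isoform of the enzyme that opens the branch to GMP, had 184 and 197 (log2 ratio 0.10). *Gmps*, which completes GMP, had 759 and 836 (log2 ratio 0.14), and its dim probe sets gave -0.47 and 0.25. The adenylosuccinate synthetases of the AMP branch, *Adss* and *Adssl1*, had log2 ratios of 0.09 and 0.11. With median scaling *Adss* and *Atic* lay just below 0, and these were the 2 of 17 measured members of PRPP, purine and pyrimidine synthesis that did.

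The pyrimidine enzymes leaned one way, since 5 of 5 lay above 0 around a median log2 ratio of 0.46, yet none reached 1.5-fold. *Cad*, a fusion of the first 3 activities of the route, had 248 with scramble siRNA and 342 with *Flcn* siRNA (1.38-fold), and 221 and 310 at its other probe set. *Dhodh*, the dehydrogenase of the inner mitochondrial membrane that passes electrons to ubiquinone, had 89.4 and 130 (1.46-fold) and 59.9 and 74.1 at its other probe set. *Umps*, which makes UMP, had 113 and 164 (1.45-fold), and its 3 probe sets above the filter had log2 ratios between 0.50 and 0.54, although the dimmest of them had a signal under the median with scramble siRNA (11.0). The probe sets of *Cad*, *Dhodh* and *Umps* thus lay on the same side of 0. The CTP synthetases differed less, with 336 and 398 for *Ctps* (log2 ratio 0.24) and 194 and 222 for *Ctps2* (log2 ratio 0.19).

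**Figure D2:**
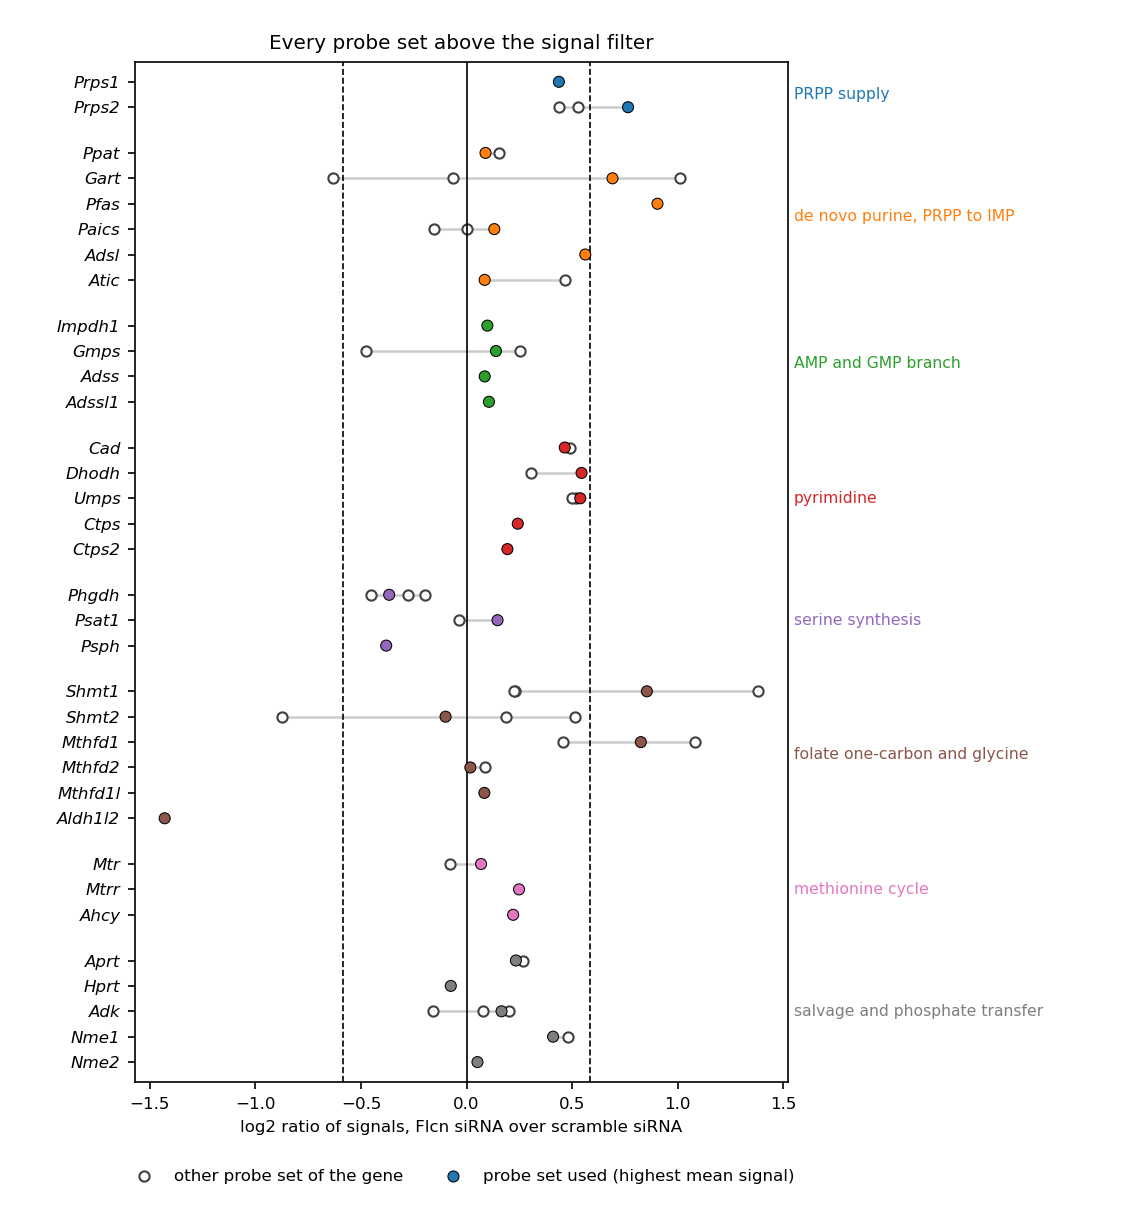
Log2 ratio of signals, *Flcn* siRNA over scramble siRNA, at every probe set above the signal filter, for 34 genes; filled points are the probe sets used, open points the others, grey lines their span, and dashed lines mark 1.5-fold. The probe sets of *Umps* (the dimmest with a floored signal), *Cad* and *Aprt* lie close together, and those of *Gart*, *Shmt2* and *Shmt1* are spread widely.

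Serine synthesis went the other way for 2 of its 3 enzymes. *Phgdh*, which draws a glycolytic intermediate into serine, had 2980 with scramble siRNA and 2312 with *Flcn* siRNA (log2 ratio -0.37). Its other probe sets above the filter had 1283 and 1060, 570 and 497, and 23.4 and 17.1, so that each of the 4 lay below 0. The name of each marks probes that can also match similar transcripts. *Psph*, the phosphatase of the last step, had 1014 and 779 at its probe set (log2 ratio -0.38). *Psat1*, the transaminase between them, had 2113 and 2339 (log2 ratio 0.15) at one probe set and 1517 and 1477 (log2 ratio -0.04) at the other, which gives it no common direction. No serine enzyme was called.

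The folate enzymes are given here by compartment, a division read from textbook knowledge after the values were seen. Both measured cytosolic enzymes were called higher. *Mthfd1*, which joins formate to folate in the cytosol and interconverts the products, had 224 with scramble siRNA and 396 with *Flcn* siRNA (1.77-fold), 171 and 361 at another probe set and 35.6 and 48.9 at the dimmest. Its log2 ratios thus ran from 0.46 to 1.08. *Shmt1*, the cytosolic serine hydroxymethyltransferase, had 82.1 and 148 (1.81-fold) at the probe set used. Its others had 29.9 and 77.8 (2.60-fold), 81.0 and 95.1 (1.17-fold), and 74.9 and 87.6 (1.17-fold), all higher but of unequal size.

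Of the 4 measured mitochondrial enzymes, 2 lay above 0 and none was called higher. *Aldh1l2*, the mitochondrial dehydrogenase that oxidises formyl folate and yields NADPH, had 1072 with scramble siRNA and 398 with *Flcn* siRNA, so that 37.1% of the signal was left (log2 ratio -1.43). This was the 23rd lowest of 10285 log2 ratios and rests on 1 probe set. *Mthfd2*, which makes formyl folate from methylene folate, had 1549 and 1568 at one probe set and 1009 and 1073 at the other, with log2 ratios of 0.02 and 0.09. *Mthfd1l*, which releases formate, had 744 and 788 (log2 ratio 0.08). *Shmt2*, the mitochondrial partner of *Shmt1*, had 1736 and 1620 (log2 ratio -0.10) at the probe set used, and its others gave -0.87, 0.19 and 0.51. With its 1 probe set that is unique by name, *Shmt2* had a log2 ratio of 0.19. Over the 6 measured folate members the median log2 ratio was 0.05, and with median scaling it was -0.04.

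The methionine cycle, which turns methyl folate into methyl groups for the cell, had 3 of 3 measured members above 0 and none called. *Mtrr*, which reactivates methionine synthase, had 173 and 205 (log2 ratio 0.25), and *Ahcy*, which removes the product inhibitor of methyltransferases, had 922 and 1074 (log2 ratio 0.22). *Mtr*, methionine synthase itself, had 103 and 108 (log2 ratio 0.07), with -0.08 at its other probe set and -0.02 with median scaling at the probe set used.

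Salvage enzymes were near 0 apart from *Aprt* and *Nme1*. *Aprt*, which joins adenine to PRPP, had 1816 and 2135 (log2 ratio 0.23), and 1213 and 1460 at its other probe set. *Hprt*, which does the same for hypoxanthine and guanine, had 1803 and 1712 (log2 ratio -0.07). *Adk*, which phosphorylates adenosine, had 1039 and 1166 (log2 ratio 0.17), with log2 ratios from -0.16 to 0.20 over 4 probe sets. The nucleoside diphosphate kinases, which charge all nucleotides to triphosphates, differed between *Nme1* and *Nme2*, close relatives whose probes may not tell them apart fully. *Nme1* had 1838 and 2441 (1.33-fold) and 1250 and 1744 at its other probe set, while *Nme2* had 4364 and 4523 (1.04-fold), which lay below 0 with median scaling (log2 ratio -0.04).

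Agreement between probe sets could be examined for 19 members with at least 2 above the filter. For 12 of them (63.2%) all probe sets lay on 1 side of 0, against 55.0% of 5034 genes. The other 7 were *Gart*, *Paics*, *Gmps*, *Psat1*, *Shmt2*, *Mtr* and *Adk*. Over single probe sets, 52 of 68 (76.5%) lay above 0, against 51.6% of 18983 probe sets with 1 gene. Of the 5 members called higher, 4 had no probe set below 0 and 1, *Pfas*, had every probe set past 1.5-fold because it has a single one.

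**Figure D3:**
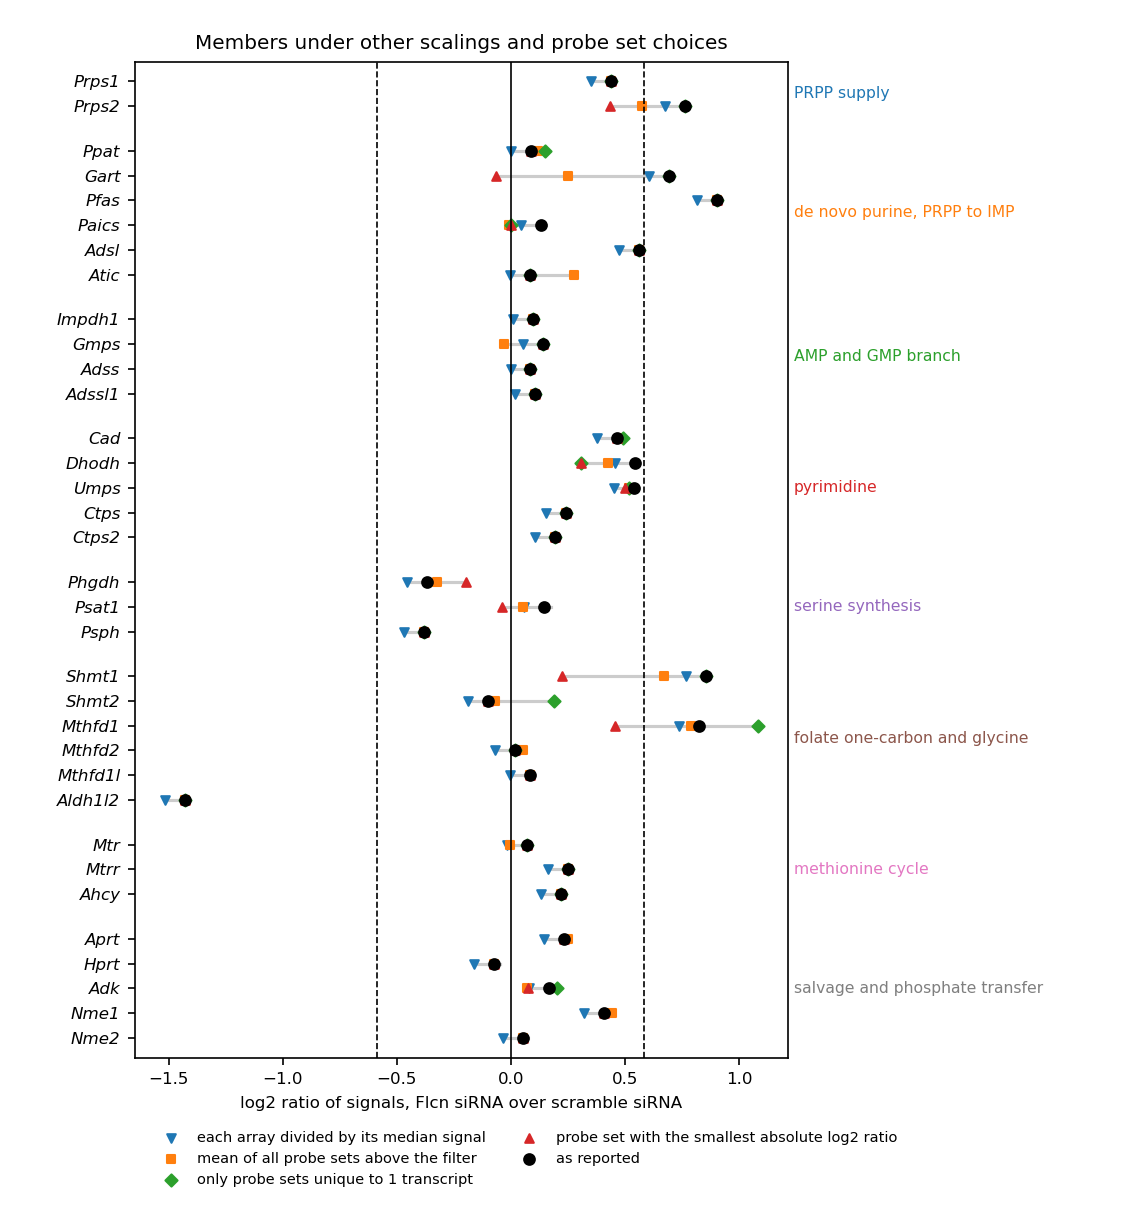
Log2 ratio of each member as reported (black) and under other scalings and probe set choices (coloured), with grey lines for the range over 9 alternatives and dashed lines at 1.5-fold. *Pfas* and *Aldh1l2* stay past the dashed lines under each of them, and *Gart* crosses 0.

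Just outside the call lay *Adsl* (1.48-fold), *Dhodh* (1.46-fold) and *Umps* (1.45-fold), and just inside it *Gart* (1.61-fold). With the call set at a log2 ratio of 0.32, *Adsl*, *Dhodh*, *Umps*, *Cad*, *Prps1* and *Nme1* would join the 5 called higher, which makes 11 of 34 (32.4%) against 16.6% of all measured genes. *Phgdh* and *Psph* would join *Aldh1l2*, which makes 3 of 34 (8.82%) against 15.5%. At 2-fold no member was higher, against 0.846% of all measured genes, and *Aldh1l2* alone was lower, against 1.10%.

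Other lists are given beside these members. Of 20 measured S phase and cycling genes, 20 lay above 0 and 11 were called higher, with log2 ratios from 0.26 to 0.93 and a median of 0.63. Over all measured genes 51.7% lay above 0, 5.84% were called higher and 5.54% lower. Of 14 measured genes of deoxynucleotide supply, the step after these members, 10 lay above 0, 5 were called higher and 2 lower, and the median log2 ratio was 0.43. Called higher there were *Tk1*, *Rrm2*, *Rrm1*, *Dtymk* and *Dctpp1*, with log2 ratios of 1.12, 1.04, 0.99, 0.78 and 0.68. The enzymes called lower there were *Tk2* (log2 ratio -0.86) and *Rrm2b* (log2 ratio -0.62), which supply deoxynucleotides outside S phase. *Rrm2b* also had a probe set at 0.22. The paper counted viable cells in cultures given RANKL and reports no faster proliferation of the knockdown cells than of controls. The part of cycling in the higher nucleotide enzymes was not tested.

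The genes of serine synthesis, *Shmt2*, *Mthfd2* and *Aldh1l2* are known targets of ATF4, the transcription factor of the amino acid response. These members went both ways. *Phgdh*, *Psph* and *Aldh1l2* lay below 0 at every probe set above the filter. *Mthfd2* lay above 0 at each of its own, and *Psat1* and *Shmt2* had probe sets on either side. Among all measured genes 48.1% lay below 0 and 5.54% were called lower. Of 20 measured ATF4 genes outside the members, 17 lay below 0 and 3 were called lower, with a median log2 ratio of -0.18. Those called were *Ddit3*, with 2290 with scramble siRNA and 1375 with *Flcn* siRNA, *Atf5*, with 473 and 304, and *Trib3*, with 943 and 623. *Atf4* itself had 3065 and 2647 (log2 ratio -0.21) and the asparagine synthetase gene *Asns* 2348 and 2070, both named after their values were seen. The highest of the list was *Ddit4* (log2 ratio 0.44). The part of ATF4 in the lower members was not tested.

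**Figure D4:**
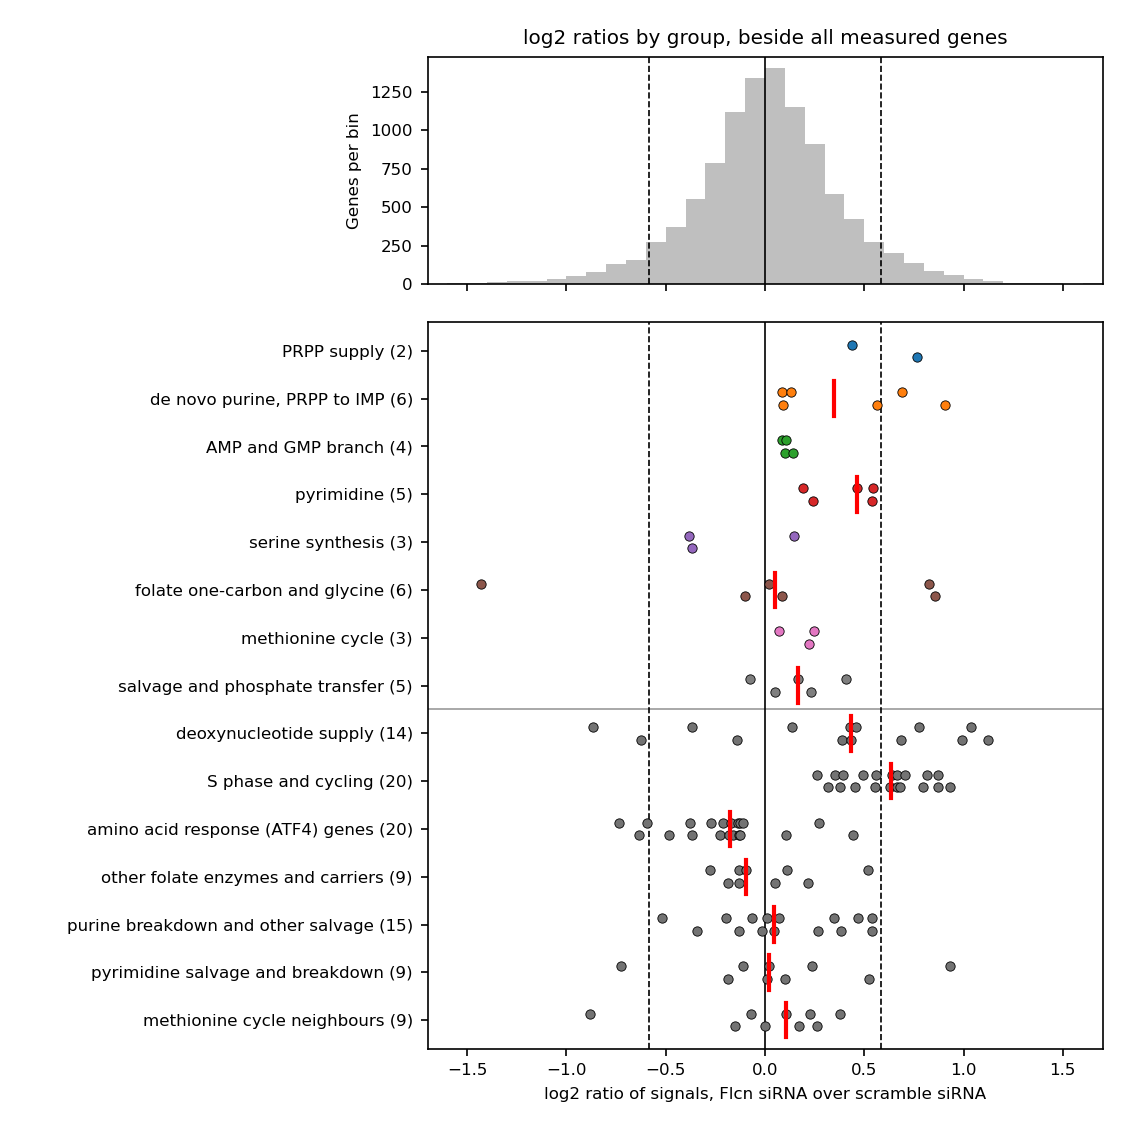
Histogram of log2 ratios of 10285 measured genes in bins of 0.1 (top; values beyond the axis are not drawn) and log2 ratios of the measured genes of each group (bottom; number of genes in parentheses; members above the grey line, other lists below it). Red bars mark the median where 5 or more genes were measured, and dashed lines 1.5-fold; the bars of pyrimidine synthesis (0.46) and S phase (0.63) lie to the right of 0, and that of the ATF4 genes (-0.18) to the left.

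The neighbouring steps of the network are given by their own lists, beside 51.7% above 0, 5.84% called higher and 5.54% called lower among all measured genes. Of 9 measured other folate enzymes and carriers, 4 lay above 0 and none was called. The highest was the reduced folate carrier *Slc19a1*, with 197 and 282 (log2 ratio 0.52), and the lowest was *Slc25a32*, which brings folate into mitochondria, with 107 and 88.3 (log2 ratio -0.28) and a log2 ratio of 0.37 at another probe set. Of 9 neighbours of the methionine cycle, 5 lay above 0 and *Cth*, which makes cysteine from cystathionine, was called lower. It had 620 and 336 at its only probe set above the filter (log2 ratio -0.88). In pyrimidine salvage and breakdown 6 of 9 lay above 0. *Nme4*, the mitochondrial nucleoside diphosphate kinase, was called higher (35.9 and 68.4) and *Cmpk2*, an interferon-induced kinase of mitochondria, was called lower (22.5 and 11.2, at least 1.65-fold, since the latter lay under the median).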

How the data were processed

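Total RNA of RAW264.7 cells was profiled on 1 Affymetrix array for each siRNA. The deposited table, made by the authors in GCOS, gives a linear signal intensity for every probe set. Its trimmed mean (2% off each end) is 100 for either array. The settings of GCOS are not stated in the sources used here. Controls (64 of 45101 probe sets), 9160 probe sets with no gene listed and 932 with several genes were left out, 3 of which name a member. Of 34945 probe sets with 1 gene, 34741 were matched by Entrez ID to RefSeq (GRCm38.p6). Floor, filter and call are given with the comparison. No p-value can be had from 1 array per condition, and precision is limited by the number of arrays.

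Members and lists were chosen with earlier results of these data known. All members are named. Of other pathway lists, genes were named only if called or among the 3 highest or 3 lowest, not all of these are named, and the text says where a gene was chosen later. All osteoclast markers are named. Alternatives were median scaling, quantile normalization, other probe set choices, floors and filters, and calls at smaller and larger folds. A planned comparison of protein sequences was not run. Functions were tested on simulated data. Python 3.11.15, numpy 2.4.6, pandas 2.3.3 and matplotlib 3.10.9 were used.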

Additional observations from a re-analysis of the deposited data

How the results depend on the processing

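Quantile normalization, both other floors, leaving out the filter and raising it to the 75th percentile put no member on the other side of 0. Median scaling did so for 6 (*Atic*, *Adss*, *Mthfd2*, *Mthfd1l*, *Mtr* and *Nme2*) and lowered the share of members above 0 to 67.6%. The mean of all probe sets left 3 members called higher and put *Paics*, *Gmps* and *Mtr* below 0. The probe set with the smallest absolute log2 ratio left 1 member called higher, turned *Gart* to a log2 ratio of -0.065, and gave medians of 0.088 for the chain to IMP and 0.31 for pyrimidine synthesis. With only probe sets unique to 1 transcript 27 members were measured, and the medians were 0.31 for pyrimidine synthesis and 0.19 for the folate group. A call at a log2 ratio of 0.32 gave 11 higher and 3 lower, and a call at 2-fold gave 0 higher. *Aldh1l2* was called lower under every alternative run. Over the alternatives the median log2 ratio of all measured members lay between 0.069 and 0.20. No paired analysis was possible because each condition has 1 array.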

Other observations

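Transport and breakdown of nucleosides lie outside the comparison above. *Slc29a1*, the equilibrative carrier of nucleosides across the plasma membrane, had a signal of 192 with scramble siRNA and 304 with *Flcn* siRNA (1.58-fold), at its only probe set above the filter. *Slc29a2*, a second such carrier, had 19.9 and 12.8, the latter under the array's median. Of 15 measured genes of purine breakdown and other salvage, 9 lay above 0 and none was called. Among all measured genes 51.7% lay above 0 and 11.4% were called either way. *Gda*, which deaminates guanine, had 165 and 240 (log2 ratio 0.54), and *Ak1*, an adenylate kinase, had 46.9 and 68.1 (log2 ratio 0.54). *Ampd2*, the AMP deaminase that returns AMP to IMP, had 1699 and 1186 (log2 ratio -0.52) and -0.52 at its other probe set.

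Among regulators of growth, *Myc*, named after its value was seen, had 111 and 135 (log2 ratio 0.28). *Mycn*, also named after its value was seen, was far brighter, with 6781 and 6530 (log2 ratio -0.05). Its log2 ratios ran from -0.32 to 0.19 over its probe sets. *E2f1*, which drives S phase genes, had 101 and 186 (1.84-fold) but a log2 ratio of 0.01 at the other probe set, and *Rptor*, the mTORC1 scaffold, had 111 and 173 (1.56-fold) but 0.18 at the other. *Mxd4*, a repressor that opposes Myc, had 167 and 106 (log2 ratio -0.66) and 0.04 at another probe set. *E2f2* went the other way from *E2f1*, with 111 and 91.1 (log2 ratio -0.28). The MiT/TFE factors *Tfe3*, *Tfeb* and *Mitf* had log2 ratios of 0.09, 0.12 and -0.02, and were also named after their values were seen.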
